A study of Drosophila melanogaster with 3 samples.

Results

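Messenger RNA of the premeiotic male germline, dissected as the apical tip of the testis, was set against RNA of female thorax on 4 arrays each, 8 of the 12 arrays of the study. The 8 arrays were taken by tissue label, with earlier results of these data already known. The 4 male thorax arrays sorted the differences into those that male soma shared with the germline and those that it did not. The flies were mated adults of the wild-type OreR laboratory strain, a few days old, with no transgene or treatment in any group. Testis tips were freed of the surrounding sheath, and thoraxes were cut from head and abdomen and stripped of legs and wings. Each array took an independent pool of many dissections, so a tip sample also held hub cells, stem cells and somatic cyst cells beside spermatogonia and early primary spermatocytes, and a thorax sample held muscle together with nerve, gut and fat body.

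At the tip of the testis, germline stem cells divide to give spermatogonia, which divide mitotically inside an envelope of 2 somatic cyst cells before they become primary spermatocytes. Primary spermatocytes grow and switch on a large transcription programme, run by testis-specific relatives of general transcription factors, that includes most genes later needed in spermatids. The thorax is mostly flight muscle, and sex differences in its somatic cells pass through Sxl, tra and dsx, a splicing cascade that ends in sex-specific Dsx proteins, and through the male-specific roX RNAs, which coat the X chromosome in male soma as part of the dosage compensation complex.

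Values are log2 signals of a probe minus the 75th percentile of its own array, called scaled signals below, and differences are differences of their means over 4 arrays. Without the scaling, every germline minus female thorax difference is 2.65 higher, and male thorax minus female thorax is 0.31 higher, so a germline fall smaller than 2.65 reads as a rise on the unscaled signals. The 3 slides each held 2 arrays of 2 tissues: both thoraxes on slide A, the male tissues on slide B, and female thorax with germline on slide C. The share of probes well above background ran from 56.8% to 73.9% in germline and from 63.6% to 71.7% in female thorax, with germline array 1 the lowest of all 12. Germline array 1 also stood apart in single genes, as given below. The tissue labels held against their markers. The summed level of 20 flight muscle sarcomere genes, in units of each array's 75th percentile, was 3.45 to 6.84 in germline, 755 to 1693 in female thorax and 776 to 1201 in male thorax. Spermatid genes summed to 271 to 296 in germline and 1.23 to 1.90 in female thorax. In male thorax they summed to 1.32 to 1.88 on arrays 1, 2 and 4 and to 8.06 on array 3. Eggshell and oocyte genes, which should be silent in thorax, summed to 113 on female thorax array 1 and 53.5 on array 4 but 6.44 and 8.43 on arrays 2 and 3, against 6.06 to 9.86 in male thorax and 1.32 to 1.76 in germline.

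Germline and female thorax differed in most of the genes measured. Of 24878 probes tested, 7175 (28.8%) were higher and 11796 (47.4%) lower in germline with limma at an adjusted p under 0.05. The median difference was -1.05 on the log2 scale. Counted once for each of 12104 named genes, by its brightest probe, 4441 (36.7%) were higher, 5027 (41.5%) lower and 2636 not called, and the median over genes was -0.27. In these bulk samples, fewer cells of a type and less RNA per cell cannot be told apart. The split between higher and lower calls rests on the scaling: with unscaled signals 12816 probes were called higher and 5467 lower. Of the genes called higher, 4119 had germline arrays wholly above female thorax arrays under 3 scalings (the 75th percentile, none and quantile), and of the genes called lower, 1870 were separate in that way. On slide C alone, with 2 arrays of each tissue, 9277 probes were called higher and 13107 lower.

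Genes of the spermatocyte programme and of the spermatid stood highest over female thorax. All 21 spermatid genes tested rose, with a median of 9.19, and 13 of 15 genes of the spermatocyte transcription programme rose, none fell and the median was 7.46, beside 36.7% of genes higher and a median of -0.27 over all genes. With the genes that no female thorax array showed above background, 4 in each list, set to their lower bounds, the medians were 8.91 and 7.45. Mst98Cb, which encodes a structural protein of the sperm tail, read 4.11, 3.99, 4.20 and 4.14 on germline arrays 1 to 4 and -0.72, -0.72, -0.36 and -0.82 on the female thorax arrays. The groups were 4.76 apart (SE 0.24, adjusted p 8.2e-09), and the spread among arrays of either tissue was small beside it. The spermatocyte regulator aly read 2.81, 2.09, 2.15 and 2.11 in germline and -4.27, -3.84, -5.51 and -5.43 in female thorax. Its difference was 7.05 (adjusted p 1.6e-08), and germline array 1 was above the other 3 germline arrays. The homeodomain pair achi and vis, which act with aly, were 4.38 (SE 0.21) and 4.89 (SE 0.22) higher in germline. Both achi probes were called higher, but only 1 of the 2 vis probes was. Taf12L, a testis-specific relative of a TFIID subunit, was 7.93 (SE 0.50) higher and mia, a second gene of that class, 3.40 (SE 0.33). The 2 spermatocyte genes not called were bol at -0.70, whose probes went in opposite directions, and CycB at -1.18.

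Spermatogonial and early germline genes rose in most cases and less steeply. Of 16 tested, 12 rose, 2 fell and 2 were not called, with a median of 4.96. Over all genes 36.7% were higher and 41.5% lower. The differentiation factor bam, which ends the spermatogonial divisions, read -3.47, -1.60, -1.62 and -1.21 in germline and -5.20, -6.89, -5.81 and -6.43 in female thorax. No germline array overlapped female thorax, germline array 1 was the lowest of its tissue, and bam, not above background in female thorax, was at least 13.0-fold higher in germline (adjusted p 4.6e-04). Among germline RNA regulators, vas was 5.26 higher, aub 6.66 and krimp 7.04, each above background on 2 of the 4 female thorax arrays, mael was 6.41 higher, and piwi, at 1.69, did not pass the test (adjusted p 0.088). chinmo, a stem cell factor of the testis, was 4.03 higher (SE 0.35). The 2 that fell on the scaled signals, tut at -1.48 and Rbfox1 at -0.66, were both higher in germline without scaling, and the call of Rbfox1 was lost in 11 of 12 fits that left out 1 array. Mitotic and replication genes followed the same direction, with 16 of 20 higher, 1 lower and a median of 2.57, beside the same shares over all genes. Cdk1, the kinase that drives entry into mitosis, was 4.58 higher (SE 0.40), polo 4.86 (SE 0.43) and PCNA, the sliding clamp of DNA replication, 3.59 (SE 0.30). string (stg), the phosphatase that activates Cdk1, fell by 3.23 in germline and was lower there without scaling and with quantile scaling too.

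As a list, genes of the hub and of cyst cells were called at about the rate of all genes. Of 12, 5 were higher, 4 lower and 3 not called, with a median of -0.07. Over all genes 36.7% were higher and 41.5% lower, with a median of -0.27. Without scaling, 3 of the 4 lower hub and cyst cell genes turned. The eye-field genes so and eya, which cyst cells use, were 1.54 and 1.62 higher. The hub ligand upd1, not above background in female thorax, was at least 1.63-fold higher, though its difference turned with normexp background correction. The hub adhesion protein Fas3 was 1.39 lower and Socs36E, an inhibitor of JAK-STAT signalling, 2.58 lower, and both turned without scaling. The largest fall of the list, CG15098 at -3.72, was larger than the 2.65 that the scaling takes off.

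**Figure D1:**
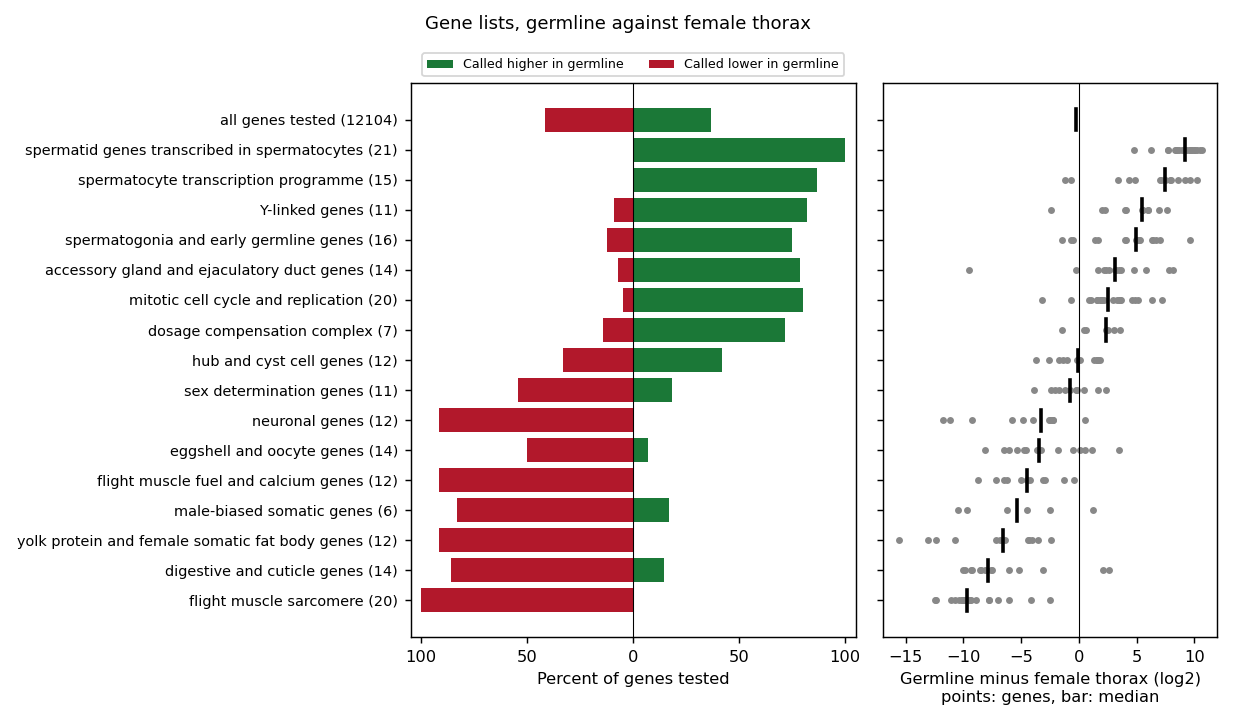
Gene lists in germline against female thorax. The left panel gives the percent of tested genes called higher (green) and lower (red) in germline with the number tested in brackets, and the right panel gives each gene's log2 difference (points) with the list median (bar). All 21 spermatid genes were higher and all 20 sarcomere genes lower, beside 36.7% higher and 41.5% lower over all genes.

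The largest rises were in genes of the male germline that female thorax did not show above background. In 1128 genes called higher, all 4 germline arrays and no female thorax array were well above background. Of these, 471 were above background on no male thorax array, 491 on 1, 137 on 2, 23 on 3 and 6 on 4. Of the 12 largest rises with non-overlapping arrays under 3 scalings, each was dim on all female thorax arrays, so that only a lower bound holds, set by the dimmest signal still well above background. These bounds ran from at least 454-fold for CG18418 to at least 641-fold for CG30270, and values this close carry no order. The 12 included Tssk, a testis-specific serine/threonine kinase (at least 632-fold), Prtl99C, a protamine-like protein of sperm chromatin (at least 490-fold), and the sugar transporter sut4 (at least 531-fold). The others, CG7557, CG9570, CG30447, CG11663, CG13544, CG30192 and CG32081, have no role that the annotation used here names. CG9570 and CG11663 lie on the X chromosome. Within male thorax, each of the 12 read highest on array 3, the array with the higher spermatid sum, from -4.06 for CG11663 to -2.23 for sut4. The part of the spermatid signal in these values was not tested. Where both tissues were above background, CG34107 led with a difference of 8.95 (SE 0.57), followed by CG3222 at 8.78 and lncRNA:CR32652 at 8.67. Lower in the same group of 12 were Prosbeta2R2, a testis-specific proteasome subunit, at 8.34 (SE 0.32), soti, an inhibitor of ubiquitin ligation in spermatids, at 8.34 (SE 0.59), and fan, a VAP-related protein of spermatids, at 8.15 (SE 0.62). Male thorax means of these 12 genes lay between -4.61 and -3.48, far below the germline means of 3.21 to 4.26.

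Muscle, fat body and metabolic genes made up the other side. All 20 sarcomere genes fell, with a median of -9.65, beside 41.5% of genes lower over all. Myosin alkali light chain Mlc1 read -1.28, -3.55, -3.34 and -3.55 in germline and 6.99, 7.55, 6.90 and 6.70 in female thorax, a difference of -9.96 (SE 0.46). Germline array 1 was the highest of its tissue for Mlc1 and still far below every thorax array. Flight muscle actin Act88F read -4.91, -7.02, -6.80 and -7.35 in germline and 6.46, 6.97, 5.11 and 4.85 in female thorax, a difference of -12.37, with 2 germline arrays above background. Here too germline array 1 was the highest of its tissue and no arrays overlapped. The smallest fall of the list was that of the titin-family gene sls at -2.54, which turned without scaling. Beside the same 41.5% over all genes, genes of glycolysis, mitochondrial exchange and calcium handling fell in 11 of 12 cases with a median of -4.49. Among them were the glycerol-3-phosphate oxidase Gpo1 at -8.78, the ADP/ATP carrier sesB at -4.97 (SE 0.21), glyceraldehyde-3-phosphate dehydrogenase Gapdh2 at -4.48 (SE 0.26) and pyruvate kinase PyK at -4.23 (SE 0.21). The trehalase gene Treh, at -0.46, was not called.

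Yolk protein and fat body genes fell in 11 of 12 cases, beside 41.5% of genes lower over all. The median of the list was -6.61, or -5.84 with the 3 genes not above background in germline set to their bounds. Yp1 was not well above background on any germline array and was at least 10675-fold lower there than in female thorax. The lipoprotein apolpp was 4.31 lower, its partner Apoltp 6.84, and the storage protein Lsp2 6.38. Of the 12 largest falls, Yp1, Yp2 and CG33109 were also called lower in male than in female thorax, and the other 9 were not called. whe fell by 14.44 (SE 0.33), CG16826 fell by 13.94 (SE 0.48) and CG4000 fell by 13.84 (SE 0.49), with 1, 2 and 1 germline arrays above background. Their male thorax means, 6.56, 6.54 and 5.98, lay near their female thorax means of 7.04, 7.10 and 6.27. Mpcp1, a mitochondrial phosphate carrier, was at least 6763-fold lower in germline, CG14125 at least 4979-fold, CG34220 at least 4866-fold, CG33109 at least 4630-fold, CG34324 at least 4210-fold, CG3906 at least 2818-fold and CG15617 at least 2662-fold. Among falls measured above background in both tissues were the muscle genes Zasp66 at -11.09, fln at -10.74, Scp1 at -10.63 and TpnC4 at -10.39, the antigen-5-related gene Ag5r at -10.88, and BomBc3, a peptide gene of the Toll immune response, at -10.38. In 435 genes called lower, all 4 female thorax arrays and no germline array were well above background, and 414 of these were above background on all 4 male thorax arrays too.

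Most Y-linked genes, which females lack, read higher in germline than in female thorax, and near the female thorax level in male thorax. Of 11 tested, 9 rose, 1 fell and 1 was not called, beside 36.7% of genes higher and 41.5% lower over all. The median of the 11 was 5.46, or 3.67 with the 9 genes not above background in female thorax set to their bounds. Their germline means ran from -5.73 for kl-2 to 0.0049 for kl-5. For kl-2 only a bound of at least 1.04-fold holds, and its difference turned with normexp background correction. Pp1-Y1 was above background on 3 germline arrays, and at -8.07 on germline array 1 it overlapped female thorax. The summed level of the 11 genes was 3.14 to 5.44 in germline, 0.455 to 0.50 in male thorax and 0.425 to 0.651 in female thorax. Both thorax sums were mostly the brighter probe of ARY, which was above background on all 4 female arrays. They are therefore no measure of Y-linked expression in thorax. The axonemal dynein gene kl-5 read -0.52, 0.27, 0.15 and 0.12 in germline, -7.94, -8.28, -7.41 and -6.27 in male thorax and -6.99, -7.73, -7.66 and -7.96 in female thorax. It was above background on the 4 germline arrays alone, where it was at least 55.4-fold higher than in female thorax, and male and female thorax overlapped. The gene that fell was ARY, whose brighter probe read -1.26 ± 0.27 (SD, n = 4) in females. That probe was 2.45 lower in germline, or 0.21 higher without scaling, while the second ARY probe was higher in germline. Over all 20 genes annotated to the Y, 17 rose and 2 fell. By their brightest probes, ARY, CR40629 and CR40801 were above background on all 4 female thorax arrays, and WDY, CR40601 and Su(Ste):CR40820 on 3.

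Few probes placed male thorax beside the germline and apart from female thorax. Male and female thorax differed at 38 probes higher in males (0.153%) and 92 lower (0.37%), with 1896 at an unadjusted p under 0.05. Germline and male thorax differed at 7296 probes higher in germline (29.3%) and 11747 lower (47.2%). Joining the calls, 21 probes (0.0844%) were higher in both germline and male thorax than in female thorax, 84 (0.338%) were lower in both, 18 (0.0724%) were higher in both germline and female thorax than in male thorax, and 25 (0.1%) were lower in both. The joined comparisons share arrays, so that their calls are not independent, and a probe can fall in more than 1 pattern. Without germline array 1 the 4 patterns held 187, 488, 194 and 456 probes, among them 20, 84, 18 and 25 of the original ones. Without female thorax arrays 1 and 4, 9, 34, 7 and 11 of the original probes were still called and all kept their direction.

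**Figure D2:**
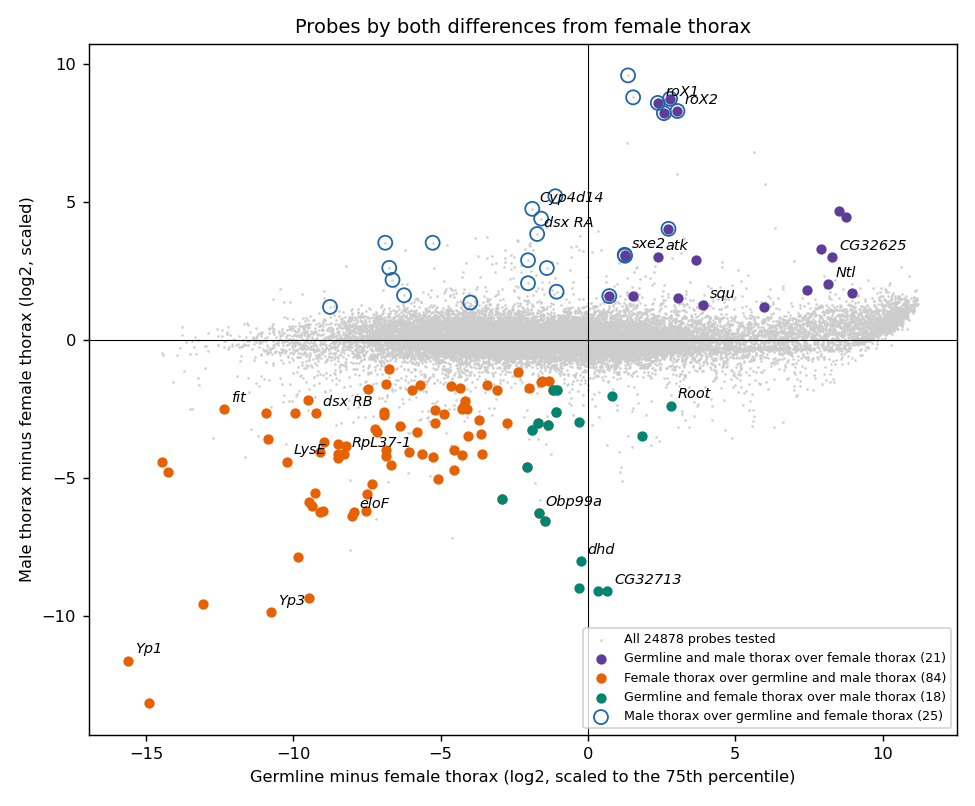
Each point is a probe, with its germline minus female thorax difference on the horizontal axis and its male thorax minus female thorax difference on the vertical axis, both log2. Of 24878 probes, 21 are purple, 84 orange and 18 green, and 25 are ringed in blue. Probes in both the orange and the green pattern are drawn green.

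The 21 probes higher in both male tissues matched 11 named genes through 13 probes, and 8 probes matched none. Of the 11, 4 were X-linked (roX1, roX2, CG32625 and CG17717), CG40635 was Y-linked, and atk, Ntl, CG3927, Fer1, sxe2 and squ were autosomal, where 15.9% of all genes tested were X-linked. With normexp background correction none of the 21 probes was called in both comparisons and 15 kept their direction. The named genes fell into 2 kinds, 1 with its high value in male thorax and 1 with its high value in germline.

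The 2 roX RNAs and the lipase-family gene sxe2 were highest in male thorax, though without scaling sxe2 was 0.51 higher in germline than there. roX1 read -0.23, -2.71, -2.80 and -2.82 in germline, 3.85, 3.80, 4.21 and 4.41 in male thorax and -4.90, -4.68, -4.0 and -4.45 in female thorax. The 3 tissues did not overlap, and germline array 1 lay well above the other 3 germline arrays. The germline exceeded female thorax by 2.37 (SE 0.53, adjusted p 0.0015), or by 1.73 without germline array 1, and male thorax exceeded female thorax by 8.57 (SE 0.53). roX2 read -2.93, -5.17, -5.39 and -5.27 in germline, 0.68, 0.70, 0.73 and 0.12 in male thorax and -7.66, -7.77, -6.79 and -8.68 in female thorax. Germline was again between the others without overlap, and no female thorax array was above background for roX2. The germline was at least 2.14-fold above female thorax (adjusted p 3.6e-04), and male thorax at least 81.1-fold above it. With normexp background correction the roX2 difference between germline and female thorax became -0.28. Of the 4 roX1 probes, 2 were called higher in germline, and the other 2, at 1.36 and 1.53, were not. sxe2 read 0.17, -1.40, -1.44 and -1.45 in germline, 0.56, 0.34, 0.59 and 1.70 in male thorax and -2.55, -2.69, -1.99 and -1.89 in female thorax. Germline array 1 stood away from the other 3 towards male thorax, and the germline call (1.25, SE 0.43, adjusted p 0.02) was lost in 2 of 12 fits that left out 1 array.

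Among the other members of the dosage compensation complex the tissues differed less evenly. The acetyltransferase gene mof was 2.56 higher in germline than in female thorax (SE 0.34), msl-3 was 3.54 higher by its brightest probe and lower by the other, msl-1 was 0.64 higher by 1 probe, a call lost in 8 of 12 fits that left out 1 array, and lower by the other, and the helicase gene mle, at 0.40, was not called. msl-2, the male-limiting subunit, was 1.5 lower with scaling and 1.15 higher without it. Only roX1 and roX2 of these 7 genes were also called between male and female thorax.

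The remaining named genes of this pattern were germline genes with a smaller male excess in soma, except atk. atk, which encodes an extracellular leucine-rich repeat protein of cilia, read -0.43, -1.33, -1.34 and -1.44 in germline, -0.96, -1.35, -0.08 and 0.32 in male thorax and -4.19, -3.83, -3.07 and -2.98 in female thorax. Germline and male thorax overlapped and both were clear of female thorax, by 2.38 and 3.0 (SE 0.43 each). CG32625 read 1.49, 0.15, -0.02 and -0.11 in germline, -5.11, -5.06, -4.61 and -4.81 in male thorax and -7.62, -7.66, -7.59 and -8.72 in female thorax. The germline was at least 71.8-fold and male thorax at least 1.85-fold above female thorax, which was not above background on any array. Ntl, a member of the neurotransmitter transporter family, read 2.45, 2.15, 2.29 and 2.13 in germline, -3.95, -4.24, -3.42 and -3.93 in male thorax and -5.75, -5.94, -5.90 and -6.04 in female thorax. The order of the 3 tissues was clear of overlap, with 8.16 (SE 0.22) between germline and female thorax and 2.03 (SE 0.22, adjusted p 7.8e-04) between male and female thorax. squ, a gene of the piRNA pathway that silences transposons in the germline, read 2.31, 2.25, 2.30 and 2.24 in germline, -0.31, -0.29, -0.17 and -0.72 in male thorax and -1.47, -1.80, -1.62 and -1.57 in female thorax. It was above background on all 12 arrays, with differences of 3.89 and 1.24. Fer1, a bHLH transcription factor, read between -1.38 and -0.66 in germline, -3.04 and -2.36 in male thorax and -4.66 and -3.70 in female thorax, with no overlap. CG3927, above background on 1 female thorax array, differed by 8.96 and 1.68, and CG17717 by 5.97 and 1.17. The Y-linked CG40635 was above background on 4 germline arrays, 2 of male thorax and none of female thorax, and was at least 48.2-fold higher in germline than in female thorax. It was called higher in male thorax too, but no fold can be given there. Many of the male thorax calls were fragile: in 12 fits that each left out 1 array, those of CG40635, CG3927 and Fer1 were lost in 10, that of CG17717 in 11 and that of squ in 5. Leaving out a germline array changed only the shared estimate of spread and left the male minus female differences as they were. For CG40635 the adjusted limma p of that difference was 0.042 with all arrays and 0.0076 without germline array 1. Male thorax array 3, where spermatid genes summed to 8.06, read -5.12 for CG40635 and -3.42 for Ntl, the highest of the 4 male thorax arrays for both. Without that array 14 of the 21 probes were still called, and the part of the spermatid signal in these values was not tested. Of the 8 probes that matched no gene, 3 were above background on no female thorax array, at least 54.3-fold to at least 165-fold higher in germline and at least 2.18-fold to at least 8.12-fold higher in male thorax.

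**Figure D3:**
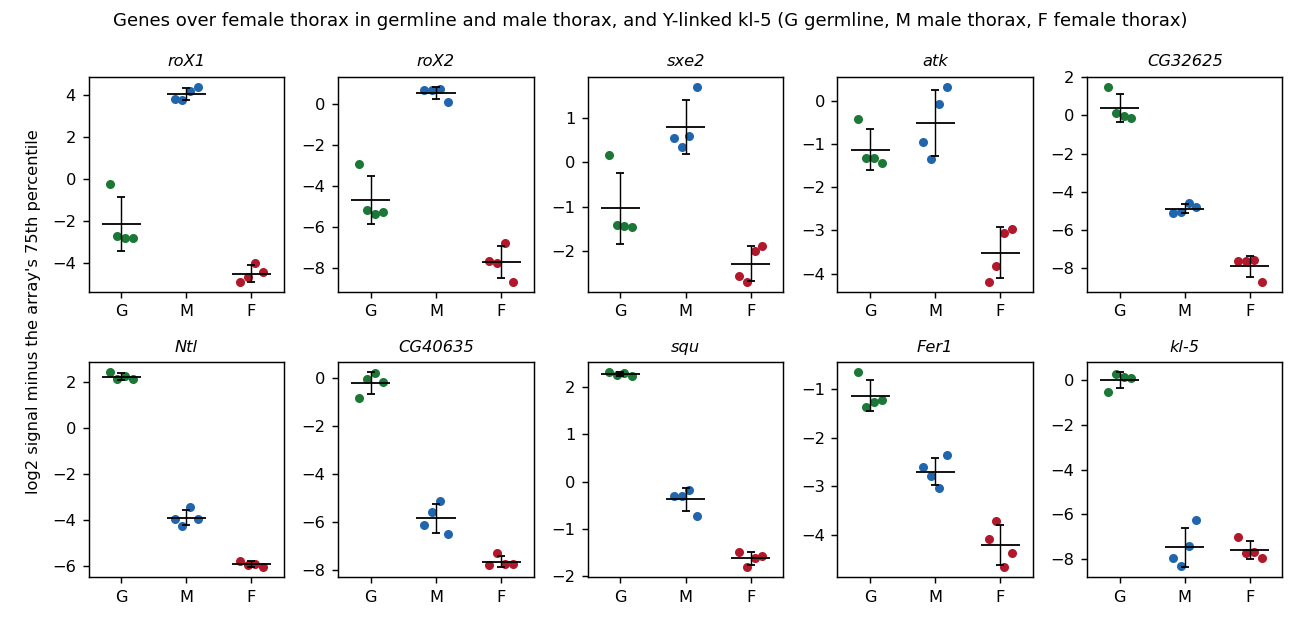
Scaled log2 signals of 9 genes that were higher in germline (G) and male thorax (M) than in female thorax (F), and of Y-linked kl-5, which was not called between the thoraxes. Points are arrays 1 to 4 from left to right, bars are means with SD, and each panel has its own axis. roX1 lies at -2.82 to -0.23 in germline, between male and female thorax.

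Female thorax was above both other tissues at 84 probes, 49 of which matched 43 genes. Of these genes, 6 were X-linked and 37 autosomal, where 15.9% of all genes tested were X-linked. Of the 84, 10 were also called higher in germline than in male thorax, among them the probes of Obp99a, CNMa, CG33777 and Tpst, so that the germline lay between the thoraxes there. The yolk proteins, made in female fat body for uptake by the oocyte, led. Yp1 read -8.73, -9.66, -9.08 and -8.68 in germline, -5.70, -5.83, -2.71 and -5.98 in male thorax and 6.37, 6.86, 6.66 and 6.40 in female thorax. Male thorax array 3 was well above the other 3, and both male tissues stayed far below every female thorax array. Yp2 read -6.62, -5.90, -5.43 and -5.46 in germline, -2.05, -2.32, -1.58 and -3.53 in male thorax and 6.89, 7.35, 7.44 and 7.19 in female thorax. Yp3 read -2.87, -3.81, -4.05 and -3.87 in germline, -3.73, -1.68, -0.96 and -4.64 in male thorax and 6.84, 7.37, 7.20 and 7.0 in female thorax. For Yp3 germline and male thorax overlapped, and their difference of 0.90 was not called (adjusted p 0.25). fit, a fat body peptide gene with higher expression in females, was different in kind: it read -4.71, -6.02, -6.07 and -6.50 in germline, 4.49, 4.00, 4.48 and 3.12 in male thorax and 6.44, 6.37, 6.81 and 6.54 in female thorax. It was thus 12.37 below female thorax in germline and 2.52 below it in male thorax, where its call was lost in 5 of 12 fits that left out 1 array.

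Of the 10 genes named by the size of both differences, eloF and Fad2 act in cuticle hydrocarbon synthesis. eloF, an elongase for the long-chain hydrocarbons of the female cuticle, read -5.16, -6.23, -6.61 and -6.60 in germline, -5.40, -4.95, -3.43 and -4.25 in male thorax and 0.50, 1.57, 2.69 and 2.69 in female thorax. The desaturase Fad2, which acts in the same pathway, read -8.71, -8.13, -7.89 and -8.00 in germline, -5.51, -5.18, -5.49 and -5.42 in male thorax and -1.41, 0.95, 1.86 and 1.81 in female thorax. For both, female thorax did not overlap the other tissues, 2 germline arrays were above background for eloF and none for Fad2, and female thorax array 1 was the lowest of its group for both. The differences between male and female thorax were -6.37 (SE 0.58) for eloF and -6.20 (SE 0.61) for Fad2.

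The other 5 were Bace, Jon25Bi, CG18265, CG17192 and LysB. Bace, an aspartyl protease, was 7.93 lower in germline and 6.22 lower in male thorax than in female thorax. The serine protease Jon25Bi, above background on 1 germline and 3 male thorax arrays, was 7.49 and 5.59 lower and lost its male thorax call in 6 of 12 fits without 1 array. CG18265 was 9.28 and 5.56 lower, with 2 germline arrays above background, and the lysozyme LysB 9.46 and 5.88, with 3. CG17192 was at least 166-fold lower in germline and 6.02 lower in male thorax by its brighter probe. On the list of 14 digestive and cuticle genes, 1 was called lower in male than in female thorax, none higher, and the median difference was -0.69. The summed level of that list ran from 70.0 to 257 on male thorax arrays and from 143 to 344 on female thorax arrays, and its part in these results was not tested. Of genes chosen after their values were seen, the lysozyme LysE read -3.16, -6.29, -5.43 and -5.78 in germline, -0.18, 0.08, 1.39 and 1.32 in male thorax and 5.09, 4.93, 5.14 and 5.11 in female thorax. The 3 groups were apart, with the female arrays within 0.09 (SD) of each other. LysD and LysS were also lower in both male tissues, a male thorax call that LysD lost in 11 of 12 fits without 1 array, and the LysB, LysD and LysE transcripts are near copies that these probes may not tell apart.

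The other genes of the 43 described here differed less in soma. Ndg, which encodes the basement membrane protein nidogen, read -1.75, -3.56, -3.52 and -3.45 in germline, -3.22, -3.20, -3.34 and -3.51 in male thorax and -0.63, -0.78, 0.10 and 0.06 in female thorax. Germline and male thorax overlapped on the scaled signals, at -2.76 and -3.01 from female thorax (SE 0.40), but without scaling the germline difference was -0.11. The ribosomal protein gene RpL37-1 read -8.80, -7.69, -8.58 and -6.90 in germline, -3.97, -3.99, -4.0 and -3.49 in male thorax and -0.01, -0.06, 0.44 and 0.78 in female thorax. No germline array was above background for it, and the male thorax arrays were tightly grouped except array 4. The smaller male thorax differences included those of the lipocalin gene NLaz (-5.96 and -1.81), spermidine synthase SpdS (-3.08 and -1.83) and the ribonucleoprotein component hoip (-1.58 and -1.55), whose germline difference turned without scaling. In fits without 1 array the male thorax calls of NLaz, SpdS and hoip were lost in 11, 5 and 6 of 12. Without scaling 47 of the 84 probes were still called and 70 kept their direction. Without female thorax arrays 1 and 4, which carried the eggshell signal, all 84 kept their direction and 34 their call.

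**Figure D4:**
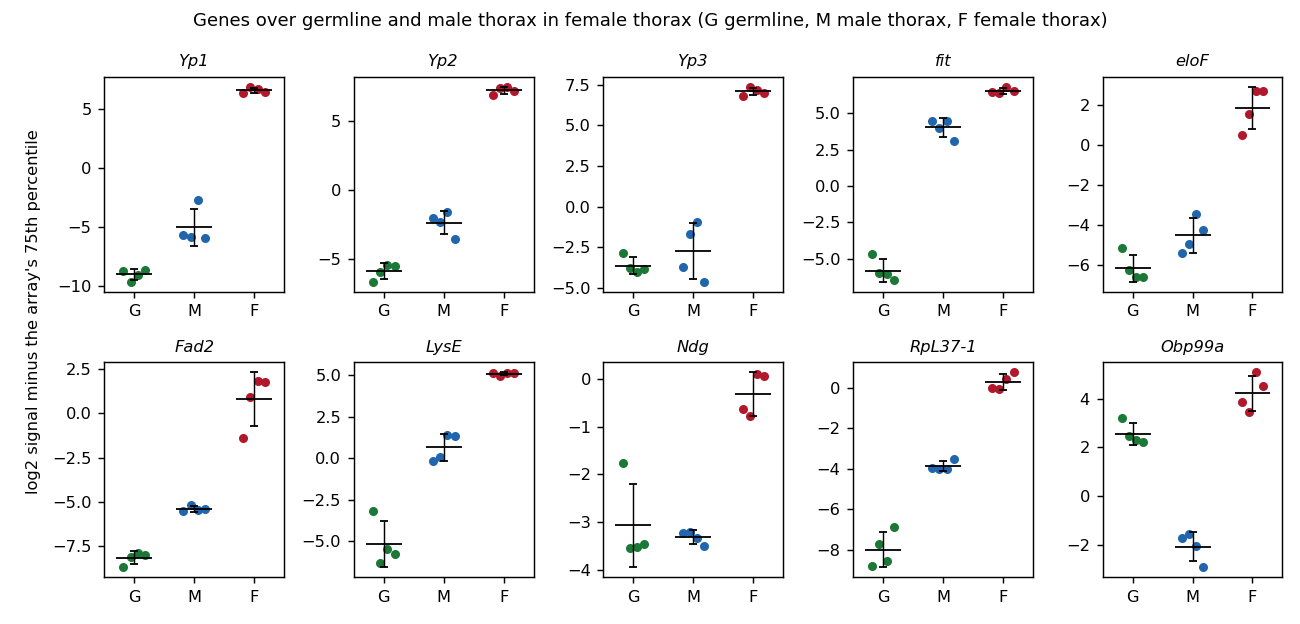
Scaled log2 signals of 10 genes called lower in both germline (G) and male thorax (M) than in female thorax (F), with arrays 1 to 4 from left to right, means, SD and a separate axis for each panel. For Obp99a the germline, at 2.22 to 3.19, lies much nearer to female than to male thorax, and for Yp1 it is the lowest of the 3 tissues.

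Only some probes of dsx, Sxl, shot and Rtnl1 were called between male and female thorax, and probes designed to the same transcript were not always called alike. The direction of the difference followed the transcript in dsx, Sxl and Rtnl1 but not in shot. Because dsx-RA and Rtnl1-RA had 1 probe each, a difference of transcript and a difference of probe cannot be told apart for them. Of 4 dsx probes, 2 of the 3 designed to the transcript dsx-RB were higher in female than in male thorax, the third was not called at -0.73, and the 1 designed to dsx-RA was higher in males. The second brightest dsx-RB probe read -8.28, -7.61, -9.02 and -7.76 in germline, -2.08, -2.33, -0.90 and -1.09 in male thorax and 0.86, 0.88, 1.14 and 1.35 in female thorax. It was not above background in germline, at least 234-fold below female thorax. The dsx-RA probe read -2.78, -3.72, -4.16 and -4.13 in germline, 1.72, 1.61, 2.11 and 1.99 in male thorax and -1.98, -2.10, -1.86 and -1.94 in female thorax. Male thorax stood alone there, 3.83 above female thorax (SE 0.30), and germline was 1.73 below female thorax with scaling and 0.93 above it without. Of 6 probes designed to the Sxl-RM transcript, 2 were called lower in male than in female thorax, at -1.80 and -1.73, and the other 4, from -1.84 to -0.52, were not. The brightest Sxl-RM probe read -5.88, -4.71, -5.13 and -4.89 in germline, 0.39, 0.23, 0.86 and 0.55 in male thorax and 2.13, 2.48, 2.25 and 2.36 in female thorax. The 3 probes of Sxl-RF and Sxl-RK were 0.65 to 0.97 higher in male thorax and not called, and Sxl's brightest probe, an RK probe, was 2.09 lower in germline than in female thorax, which turned without scaling. The cytoskeletal linker shot had 1 probe that was 6.87 lower in germline and 4.22 lower in male thorax than in female thorax, and its other 2 probes, 1 of them designed to the same transcript, shot-RE, were 0.50 and 0.62 higher in male than in female thorax and not called. The reticulon gene Rtnl1 had 1 such probe out of 5 (-6.94 and -2.72), with the others between 0.13 and 0.45 in the male comparison, and its male thorax call was lost in 8 of 12 fits without 1 array. Sxl, shot and Rtnl1 were singled out after their values were seen. Over the list of 11 sex determination genes, 2 rose in germline (tra2 at 2.33 and vir at 1.66), 6 fell and 3 were not called, with a median of -0.75, beside 41.5% lower over all genes, and 5 of the 6 that fell turned without scaling.

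**Figure D5:**
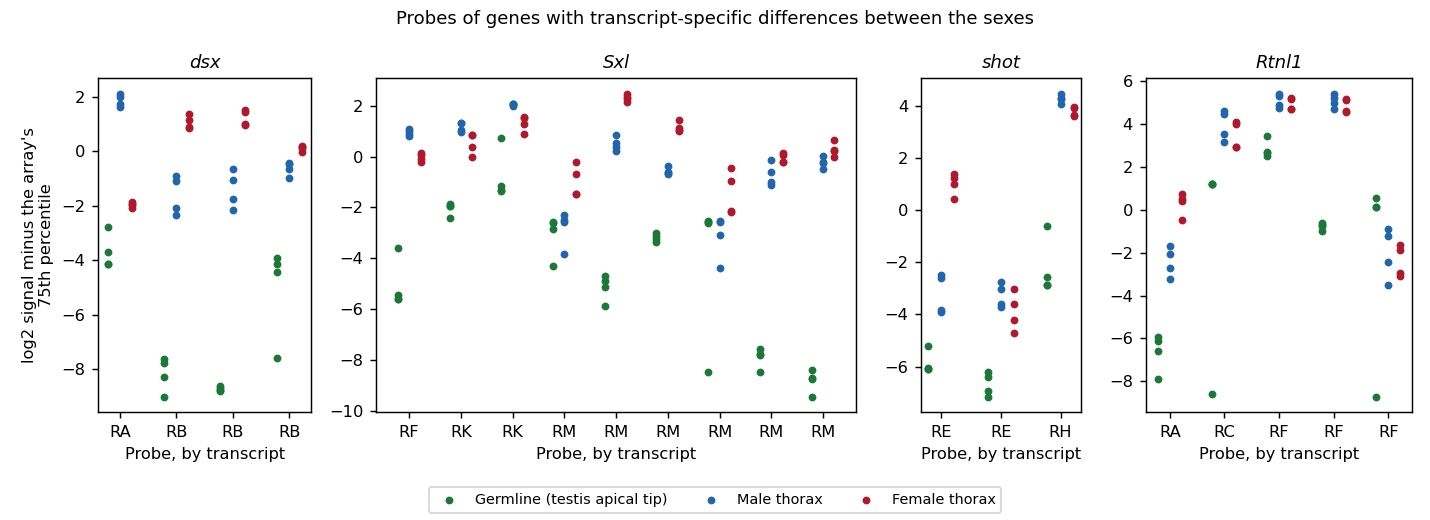
Scaled log2 signals of every tested probe of dsx, Sxl, shot and Rtnl1, labelled by the transcript the probe was designed to, with 4 arrays per tissue (germline green, male thorax blue, female thorax red). Only some probes of each gene were called between male and female thorax, among them dsx-RA, where male thorax was 3.83 above female thorax.

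Germline and female thorax shared 18 probes over male thorax, which matched 9 genes, CG17404, CG32713, CG33777, CNMa, Obp99a, Root, Tpst, dhd and ear, with CG32713, Tpst and dhd on the X, beside 15.9% of all genes tested. The odorant-binding protein gene Obp99a read 3.19, 2.46, 2.29 and 2.22 in germline, -1.71, -1.56, -2.04 and -2.90 in male thorax and 3.85, 3.45, 5.08 and 4.50 in female thorax. Male thorax stood apart from both, 4.59 below germline and 6.27 below female thorax, and the 2 probes of the gene gave the same order. Germline lay 1.68 below female thorax, or 0.97 above it without scaling. Root, which encodes the ciliary rootlet protein rootletin, read 2.97, 1.73, 1.88 and 1.63 in germline, -3.63, -3.28, -2.57 and -3.08 in male thorax and -0.63, -1.14, -0.52 and -0.72 in female thorax. ear, a YEATS-domain gene of transcription elongation, was 2.84 above male thorax in germline and 2.04 above it in female thorax. Without female thorax arrays 1 and 4 the male thorax differences of Root and ear, -2.39 and -2.04 with all arrays, were -2.31 and -2.0 and no longer called (adjusted p 0.19 and 0.13).

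The X-linked genes dhd and CG32713 varied widely among female thorax arrays. dhd, the oocyte thioredoxin deadhead, read 1.30, 0.39, 0.39 and 0.44 in germline, -7.90, -7.19, -5.53 and -7.96 in male thorax and 3.34, -2.09, -0.66 and 2.93 in female thorax. Its high female arrays, 1 and 4, were those with the eggshell and oocyte signal of 113 and 53.5, and its highest male array was array 3. No male thorax array was above background for dhd, which was at least 115-fold higher in female thorax, or at least 24.1-fold on arrays 2 and 3 alone (adjusted p 0.014). CG32713 read 3.86, 3.20, 3.28 and 3.18 in germline, -7.81, -7.66, -3.69 and -6.36 in male thorax and 1.83, -0.08, 4.88 and 4.31 in female thorax. Its highest female arrays were 3 and 4, where the eggshell and oocyte signal was 8.43 and 53.5. Its male thorax difference from female thorax was -9.12 with all arrays and -8.78 (adjusted p 0.063) without female thorax arrays 1 and 4. The part of oocyte RNA in these 2 results was not tested. CG17404, the other gene of the pattern that was above background on all germline and female thorax arrays and on no male thorax array, was at least 4.88-fold higher than in male thorax in germline and at least 6.05-fold higher in female thorax.

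Male thorax alone was high at 25 probes, which matched 12 genes, 7 of them X-linked beside 15.9% of all genes tested: CG11854, CG12239, CG15358, CG2444, Cyp4d14, Eaat2, NetB, dsx, roX1, roX2, sxe2 and tyn. The cytochrome P450 gene Cyp4d14 read -8.67, -9.50, -8.85 and -8.47 in germline, -2.10, -1.70, -1.54 and -3.63 in male thorax and -7.54, -6.12, -6.58 and -7.70 in female thorax. It was the only gene above background on all male thorax arrays and on no array of either other tissue, at least 11.7-fold over female thorax and 23.7-fold over germline. tyn, a zona pellucida domain protein of the cuticle, read -2.78, -3.40, -3.50 and -3.41 in germline, -0.29, -0.52, -0.47 and -0.59 in male thorax and -1.97, -2.11, -2.35 and -2.39 in female thorax, and the 3 tissues did not overlap. CG11854, CG15358, CG12239, CG2444, the netrin gene NetB and the amino acid transporter gene Eaat2 were not above background in germline and were 1.19 to 3.51 higher in male than in female thorax. Of these male thorax calls, those of CG11854, CG2444, NetB and Eaat2 were lost in 9, 8, 9 and 10 of 12 fits that left out 1 array. On a list of 6 genes known for male-biased somatic expression, sxe2 rose in germline and the other 5 fell, with a median of -5.37 beside 41.5% of genes lower over all. Of these 6, only sxe2 was called higher in male than in female thorax here, and the median male minus female difference was 1.75. The takeout gene (to), which has a role in male courtship, was 10.44 lower in germline than in female thorax, with 2 germline arrays above background, and the P450 gene Cyp4d21 at least 350-fold lower.

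Presence above background on all arrays of a tissue or on none set few genes apart by sex. Of 12104 genes, 7915 (65.4%) were well above background on all 12 arrays and 3291 on some arrays only of at least 1 tissue. Germline and male thorax, and no female thorax array, held 6 genes, CG32625, Hr51, Lip1, Ssl, brv3 and roX2, of which 3 were X-linked, and 2 of the 6, CG32625 and roX2, were also called in both comparisons. Germline and female thorax, and no male thorax array, held 2, CG17404 and dhd. The germline alone held 475 genes, 12.6% of them X-linked, and the 2 thoraxes without the germline held 414, 18.4% of them X-linked, beside 15.9% X-linked among the genes present everywhere.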

How the data were processed

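Total RNA of testis apical tips, male thorax and female thorax was amplified, labelled with Cy3 and hybridised to 1-colour Agilent Drosophila arrays, 4 per tissue. The authors deposited scanner output, in which the intensity of each spot is Agilent's processed signal, already background-subtracted. The submitters' notes name Feature Extraction 9.1 and limma. A second deposited table holds the authors' log2 values, 1 column for each tissue, which were used only as an alternative. Its columns had medians of 12.1, 10.0 and 9.83, as unscaled values do.

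Flagged and control spots were dropped, spots of a probe averaged, and log2 intensity was taken minus each array's 75th percentile. Of 32162 probes, 24878 with a tissue mean of log2 7 or more in at least 1 tissue were tested with limma 3.58.1 in R 4.3.3 on all 12 arrays, with Benjamini-Hochberg adjustment over all of them and calls at 0.05. Symbols came from RefSeq through locus tags or accessions. Of the tested probes, 17592 were named and 7286 were not. A gene is given by its brightest probe. Of 3800 genes with several probes, 246 had probes called both ways. The text names the 12 largest rises and falls (all, and those above background in both tissues), up to 10 genes of each pattern, and members of the gene lists. A few more pattern genes were named after their values were seen. Members and lists were chosen with earlier results of these data known. The "at least" folds set the bright tissue's mean against the dimmest signal still well above background on each array, or the probe's own signal if higher. Array numbers follow slide and position and pair nothing. The arrays are said to hold independent pools, and 4 per tissue limit the precision. Alternatives were no scaling, quantile scaling, normexp background correction with an offset of 50 (on the spot median), other filters, array weights, slide as a block or alone, and leaving out arrays. The fit was tested on simulated data of 24442 probes, only a small share of which was changed. For germline against female thorax it recovered 6% of differences of 1, 38% of 2, 78% of 3 and 72% of 4 on the log2 scale. Of its calls, 9.35% were false. Most probes were called in the real comparison, so these rates do not describe it.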

Additional observations from a re-analysis of the deposited data

Results flagged for a closer look

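Each group of 4 arrays was examined for an array whose gap to its nearest neighbour exceeded Dixon's 95% critical share of the group's range, a limit that chance passes in about 1 of 20 groups. Of 100 groups, 17 passed it, and 11 of those were germline array 1. Germline array 1 was high for aly (2.81, others 2.11 in the median), Mlc1 (-1.28, others -3.55), roX1 (-0.23, others -2.80), roX2 (-2.93, others -5.27), atk (-0.43, others -1.34), sxe2 (0.17, others -1.44), CG32625 (1.49, others -0.02), Ndg (-1.75, others -3.52), CG32713 (3.86, others 3.20), dhd (1.30, others 0.39) and tyn (-2.78, others -3.41). In male thorax, array 3 was high for Yp1 (-2.71, others -5.83) and for the summed spermatid genes (8.06 in units of the 75th percentile, others 1.37), and array 4 was low for roX2 (0.12, others 0.70) and high for RpL37-1 (-3.49, others -3.99). In female thorax, array 2 was high for CG40635 (-7.28, others -7.75) and array 4 low for CG32625 (-8.72, others -7.62), both below background there. The causes were not tested.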

How the results depend on the processing

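Of 230 differences of genes named in the text, 149 kept their direction and their side of the threshold under every alternative that could be run for them, 60 fell below the threshold under at least 1, and 24 changed direction under at least 1. Slide C alone and the filter on all 12 arrays covered 156 and 115 of the 230. Without scaling, the germline minus female thorax differences of Lsp1gamma, ARY, msl-2, bol, CycB, tut, Rbfox1, Fas3, Socs36E, sls, Treh, Syt1, Sxl (brightest probe), hoip, Obp99a and dsx-RA became 0.27, 0.21, 1.15, 1.96, 1.47, 1.17, 1.99, 1.26, 0.076, 0.11, 2.19, 0.34, 0.56, 1.07, 0.97 and 0.93, and sxe2 became 0.51 between germline and male thorax. With quantile scaling Syt1 became 0.0076. With normexp, roX2, kl-2, piwi, upd1 and Lcp65Ac became -0.28, -0.95, -0.046, -0.97 and -0.71 between germline and female thorax, CG40635 -0.48 between male and female thorax and CG33777 -0.57 between germline and male thorax. The uncalled bol and CycB also turned on slide C alone (0.39 and 0.70), bol with array weights (0.21) and CycB without female thorax arrays 1 and 4 (0.24), and leaving out 1 array gave -1.07 to 0.22 for bol and -1.74 to 0.23 for CycB. The causes were not tested. The 4 patterns are named here as higher in both male tissues, lower in both male tissues, higher in germline and female thorax, and higher in male thorax alone. Without scaling, 12816 probes were higher and 5467 lower in germline than in female thorax, the median difference was 1.60 and 47 probes were lower in both male tissues. The median was -0.42 with quantile scaling, -1.53 with normexp and 2.05 in the authors' table over 15845 probes. Quantile scaling gave 32 probes higher in germline and female thorax, and normexp gave 0 higher in both male tissues, though 15 of the 21 probes kept their direction. With only probes above background on all 12 arrays, 3324 were higher, 6614 lower, and the first, second and last pattern held 8, 46 and 16. Fits on only the tissues compared gave 36, 137, 28 and 83 for the 4 patterns, and array weights, which set germline array 1 to 0.0198, gave 363, 1044, 653 and 817. Without female thorax arrays 1 and 4, chosen after seeing the data, they held 9, 34, 8 and 11. Leaving out 1 array gave 6789 to 8633 higher, 11276 to 12743 lower, a median of -1.13 to -0.83, and 14 to 187, 59 to 488, 15 to 194 and 18 to 456 probes in the patterns. The upper ends came without germline array 1, when 20 of 21, 84 of 84, 18 of 18 and 25 of 25 of the original probes were still called. No paired analysis was possible because array numbers pair nothing, and slide C alone holds no male thorax. Dim probes limit the size of a fall or rise to a bound.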

Other observations

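Nerve, gut and chromosome 4 gave further differences. Neuronal genes were lower in germline in 11 of 12 cases, beside 41.5% of genes over all. The median of the list was -3.28, and 5 of the 11 lower genes turned without scaling. Snap25 and VAChT, of synaptic vesicle release and acetylcholine loading, were not above background in germline, at least 1005-fold and at least 657-fold lower, while Syt1, the calcium sensor of vesicle release, differed by -2.31 (SE 0.21), which turned without scaling, and brp, at 0.52, was not called. Digestive and cuticle genes were lower in 12 of 14 cases, with a median of -7.87, or -7.55 at the bounds of dim genes, among them the trypsin gene betaTry at -9.88 and the amylase gene Amy-d at -8.55. The cuticle genes Lcp65Ac and Cpr49Ac were higher in germline, at least 1.61-fold for Lcp65Ac, not above background in female thorax and turned with normexp, and 2.13 for Cpr49Ac on the log2 scale. Of 79 genes on chromosome 4, 56 were lower (70.9%) and 6 higher (7.59%), with a median of -3.03. Over all genes these shares were 41.5% and 36.7%, with a median of -0.27. Without scaling each difference is 2.65 higher, so the size of the chromosome 4 median rests largely on the scaling. All 13 genes annotated to the mitochondrial genome were lower.

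Accessory gland and ejaculatory duct genes were higher in germline in 11 of 14 cases, beside 36.7% of genes over all. The median of the list was 3.17, or 2.12 with the 8 genes not above background in female thorax set to their bounds. Acp36DE, a seminal fluid protein of sperm storage, was at least 62.0-fold higher and Acp98AB at least 97.3-fold higher than in female thorax. The exception, the esterase gene Est-6, was 6.02 ± 0.18 (SD, n = 4) in female thorax and -3.49 ± 0.53 in germline. The summed level of the list was 13.4 on germline array 1 and 2.46 to 3.60 on the other 3, and the part of gland tissue in that value was not tested. Of the eggshell and oocyte genes, 7 of 14 fell, 1 rose and 6 were not called, with a median of -3.46, beside 41.5% lower and 36.7% higher over all genes. The oocyte patterning gene grk differed by -6.51 (SE 0.49), and Cp7Fb, at 3.47, was the one that rose. For grk the mean was 2.07 in female thorax and 2.47 in male thorax, above background on all 4 arrays of each. Its signal was therefore not particular to female thorax.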
